A study of Mus musculus with 3 samples.

Results

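The 9 chemokine receptor genes Ccr2, Ccr4, Ccr6, Ccr7, Ccr8, Ccr9, Cxcr3, Cxcr4 and Cxcr5 were followed in mouse regulatory T cells, out of 55536 mouse genes in the deposited gene tables. They were chosen by name, with earlier results of these data known. Each symbol was matched to its gene identifier through the second transcript table. Regulatory T cells are CD4 T cells that hold other immune cells in check, and their identity rests on the transcription factor Foxp3. Polyadenylated RNA was sequenced in 3 libraries, which per the labels are technical replicates 1, 2 and 3 of biological replicate 1 and are named here by those numbers. The mouse was an adult male of 4 months of the strain Foxp3CreERT2 x Rosa26YFP, in which a tamoxifen-inducible Cre is made under the control of Foxp3 and a yellow fluorescent reporter sits in the Rosa26 locus. The source label names bone marrow haematopoietic cells as the origin, and the tissue from which the cells were sorted is not stated in the labels. All 3 libraries carry the same alleles and received the same treatment as far as the labels say, so there is 1 group and no contrast between conditions. Tests compare the libraries with each other. A p-value here reflects how far 3 libraries labelled as technical replicates differ, not how mice differ. Whether the libraries come from separate sorts of cells is not given in the labels.

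Chemokine receptors are membrane-spanning receptors coupled to G proteins of the inhibitory class. A chemokine that binds one releases G protein subunits that activate phosphoinositide 3-kinase gamma and the Rac and Rap switches, so that the cell polarises and moves up the chemokine gradient. G protein-coupled receptor kinases, arrestins and RGS proteins then end the signal. In regulatory T cells different receptors serve different destinations: Ccr7 and Cxcr5 lymphoid organs, Cxcr4 the bone marrow, Cxcr3, Ccr2 and Ccr6 inflamed tissue, Ccr8 and Ccr4 skin and other barrier tissues and tumours, and Ccr9 the small intestine.

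These genes belong to 1 family, so a coding stretch around a shared signature is shown. Receptors of this class carry Asp-Arg-Tyr at the inner end of the third membrane-spanning helix, where the G protein is engaged. All 9 genes held the 3 codons in frame, searched as GAT or GAC, then CGN, AGA or AGG, then TAT or TAC, on the coding strand only. The same codons stood in frame in 1761 of 21866 protein-coding genes, which is 8.05%. The windows below come from the GENCODE M21 transcripts, read 5′ to 3′, with the 3 codons in capitals.
Ccr7: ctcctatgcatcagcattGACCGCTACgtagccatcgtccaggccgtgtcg
Cxcr5: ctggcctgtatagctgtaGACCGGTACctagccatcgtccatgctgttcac
Cxcr4: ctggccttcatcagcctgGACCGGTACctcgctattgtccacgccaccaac
Cxcr3: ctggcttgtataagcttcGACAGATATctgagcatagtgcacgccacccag
Ccr2: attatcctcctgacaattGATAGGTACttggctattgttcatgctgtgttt
Ccr6: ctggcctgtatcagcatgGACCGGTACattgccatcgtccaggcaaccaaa
Ccr8: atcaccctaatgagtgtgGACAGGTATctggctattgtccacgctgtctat
Ccr4: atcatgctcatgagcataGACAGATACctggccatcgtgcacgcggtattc
Ccr9: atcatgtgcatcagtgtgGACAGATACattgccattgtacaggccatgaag
Among the 9 windows Ccr6 and Cxcr4 were the most alike, with 41 of 51 bases identical. Over whole transcripts the longest identical stretch that a receptor shared with another of the 9 was between 13 and 17 bases. Of the distinct 31-base words in the Ccr2 transcripts 3.41% also occurred in transcripts of other genes. The share was 3.12% for Ccr9, 0.897% for Ccr4, 0.823% for Ccr6 and 0 for Ccr7, Cxcr3, Ccr8, Cxcr5 and Cxcr4. The shared words of Ccr2 occurred in 642 other genes and those of Ccr9 in 1093. Reads that fall in them could have been split with those genes. Words were compared in the direction of the transcripts only, and the share of reads that fall in them was not measured.

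The libraries held 9299013, 9188579 and 8284324 expected counts over mouse genes in libraries 1, 2 and 3. All 10 regulatory T cell markers were detected in every library, with summed levels of 8936, 9059 and 8321 TPM (transcripts per 1000000 transcripts, a level that accounts for length), and Foxp3 stood at 27.6, 43.7 and 47.1 TPM. Library 1 stood apart: over all tested genes its scaled counts were above the gene's mean for short genes, by a median of 0.35 on the log2 scale in the shortest of 10 length bins, and below it for long genes, by a median of -0.21 in the longest. The coefficient of variation between libraries, from edgeR's common dispersion, was 20.2% with all 3 libraries and 12.3% without library 1. The summed levels of the 6 erythroid markers were 1685, 9.02 and 1497 TPM. Those of the 6 neutrophil markers were 45.7, 0.60 and 2.94 TPM, with Elane at 0 in every library. The 6 plasma cell markers summed to 177, 60.8 and 236 TPM, with Sdc1 below 1 TPM throughout. Among the latter Jchain stood at 98.5, 4.42 and 79.7 TPM and Igha at 36.4, 1.35 and 98.5 TPM. Mzb1 was also lowest in library 2, while Xbp1 and Prdm1 were lowest in library 1. Of the bone marrow progenitor markers Kit, Gata2, Cd34 and Mpo none was detected in every library, and Gata2 was at 0 in all 3. The labels give these libraries as technical replicates, and why marker levels of other cell types differed between them was not tested. In bulk RNA a smaller number of cells of a type and less RNA per cell cannot be told apart.

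All 9 receptor genes were detected, meaning 1 TPM or more in every library, as were 10120 of 22028 protein-coding genes (45.9%). Their mean levels spread from 6.47 TPM for Cxcr4 to 270.2 TPM for Ccr7. Ccr7 alone made up 33.6% of the summed level of the 9 genes and Cxcr3 another 20.1%, averaged over the libraries. Cxcr4 made up 0.805%. In the order of mean TPM, Ccr7 lay above Cxcr3, Cxcr3 above Ccr6, Cxcr5 above Ccr2, Ccr2 above Ccr4 and Ccr9 above Cxcr4 without any overlap of their library values. The values of Ccr6 and Ccr8, of Ccr8 and Cxcr5, and of Ccr4 and Ccr9 overlapped, so 5 of the 8 neighbouring pairs were separate. With 3 values against 3 the smallest two-sided p an exact permutation test can give is 0.10, and no p is given for these pairs.

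**Figure D1:**
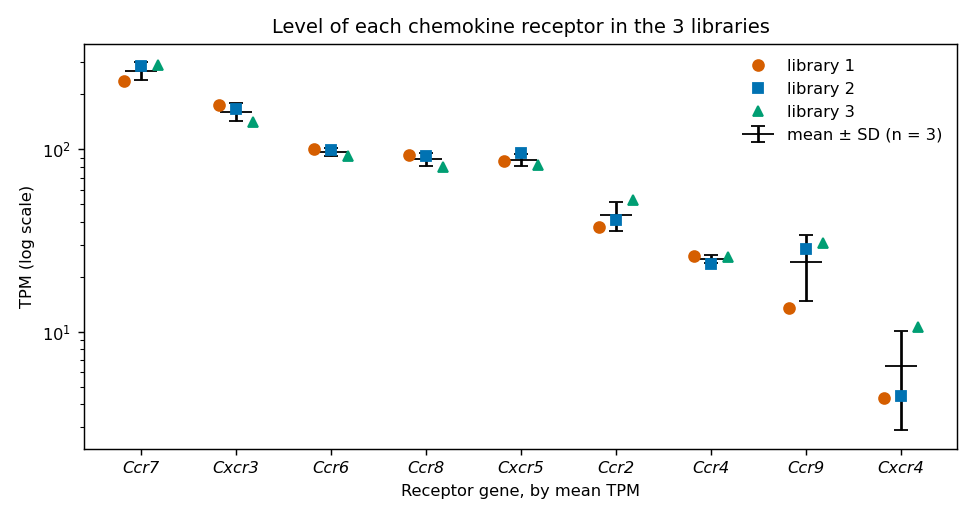
Level of the 9 receptor genes in TPM on a log axis, with a circle, square and triangle for libraries 1, 2 and 3 and a bar for the mean ± SD over the 3 libraries. Ccr7 and Cxcr3 stand at the top, Ccr6, Ccr8 and Cxcr5 form a group with overlapping values, and Cxcr4 lies lowest with library 3 at 10.6 TPM.

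Library differences were tested on rounded expected counts, divided by TMM library sizes (scaled counts, in CPM, counts per 1000000), with a chi-square test of homogeneity and Benjamini-Hochberg adjustment over the 13071 genes with 30 or more counts. Of the 9 receptors 8 passed, all but Ccr7, while 54.3% of all tested genes passed. The highest library was 2-fold or more above the lowest and the test was passed for 2 receptors, Ccr9 and Cxcr4, and for 8.78% of all tested genes. Both lay close to that cut, at 2.02 and 2.17, and with scaling within 10 bins of gene length Ccr9 fell to 1.73. The median ratio of the highest to the lowest library was 1.42 for the receptors and 1.37 for all tested genes. Library 1 had the highest scaled count for 6 receptors and library 3 for the other 3, Ccr2, Ccr9 and Cxcr4. Leaving out library 1, only Cxcr3, Cxcr5, Ccr2 and Cxcr4 passed, 4 of 9, beside 17.5% of all genes tested in libraries 2 and 3. The adjusted p without library 1 was 0.221 for Ccr6, 0.189 for Ccr8, 0.300 for Ccr4 and 0.122 for Ccr9. Without library 2 Ccr2 no longer passed (adjusted p = 0.0637), and without library 3 Cxcr4 did not (adjusted p = 0.388), which left 7 of 9 in each case, beside 49% and 46.3% of all genes tested.

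**Figure D2:**
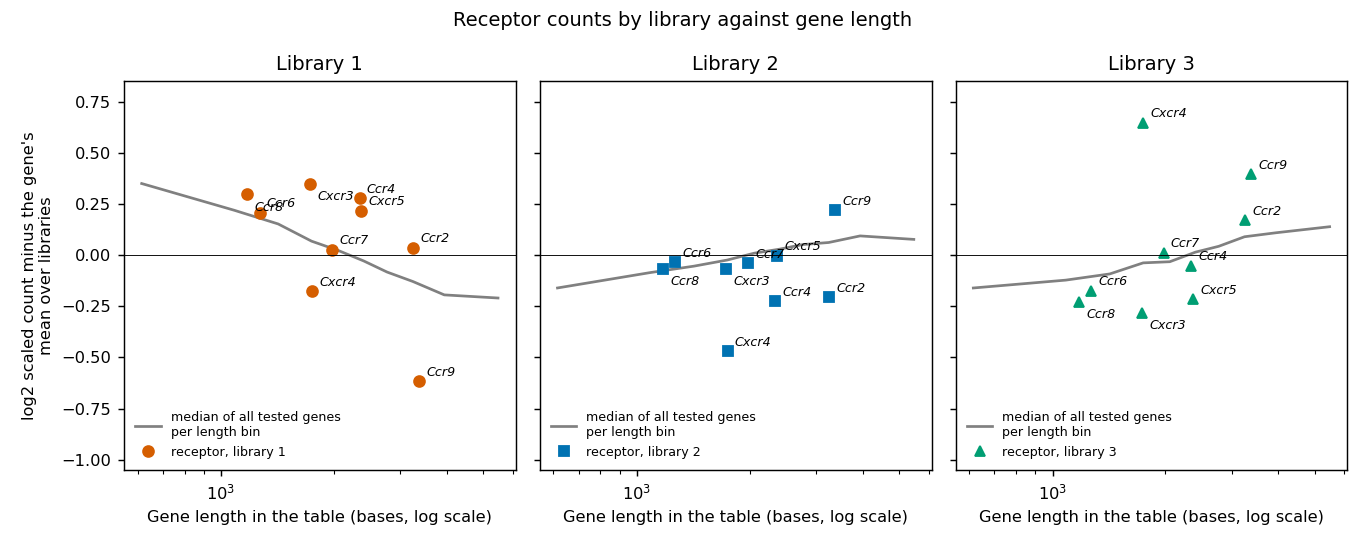
Scaled count of each receptor in each library, as the log2 difference from the gene's own mean over the 3 libraries, against gene length in bases on a log axis, with a grey line for the median of all tested genes in each of 10 length bins. In library 1 the line falls with length, Ccr6 lies close to it, and Ccr9 lies far below it.

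Ccr7, the receptor for Ccl19 and Ccl21 that brings T cells into lymph nodes, was the highest of the 9 and, on scaled counts, the steadiest. Its levels were 236, 285 and 289.5 TPM in libraries 1, 2 and 3 (mean 270.2 ± 29.6 TPM, SD, n = 3), above 95.5% of detected protein-coding genes. Library 1 was the lowest of the 3 on the TPM scale. On scaled counts it had 389, 371 and 385 CPM, with a ratio of 1.05 between the highest and lowest and an adjusted p of 0.185. The 95% exact interval of the library 1 to library 2 ratio ran from 0.999 to 1.10, which covers counting error only, as do all such intervals here. Library 1 was here the highest of the 3, and the values lay within a few percent of each other. In the second transcript table, by contrast, Ccr7 passed the test (adjusted p = 0.00509), as did 47.9% of all genes tested there. Dendritic cells also carry Ccr7, and of their 5 markers 1, Zbtb46, was detected in every library, with summed levels of 2.54, 3.85 and 4.96 TPM.

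Cxcr5, the receptor for Cxcl13 that leads cells into B cell follicles and marks follicular T cells, stood at 86.4, 95.15 and 82.3 TPM (mean 87.9 ± 6.58 TPM, SD, n = 3). Its scaled counts were 176, 151 and 130 CPM, and the ratio of library 1 to library 3 was 1.35 with an interval of 1.25 to 1.46 (adjusted p = 1.649e-12). Library 1 was the highest and library 3 the lowest. B cells also carry Cxcr5, Ccr7, Ccr6 and Cxcr4. All 9 B cell markers were detected, and their summed scaled counts were 266, 171 and 313 CPM, with summed levels of 180, 141 and 244 TPM. Library 3 was thus the highest for B cell markers and the lowest for Cxcr5. On scaled counts Cxcr4, at 6.45, 5.26 and 11.4 CPM, ranked the libraries 3, 1, 2, as the B cell sum did. Ccr7 and Ccr6 were highest in library 1 on that scale. The part of B cells in the level of these 4 receptors was not tested.

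Cxcr4, the receptor for Cxcl12 that holds cells in the bone marrow, was the lowest of the 9. It had 57, 50 and 96 expected counts, or 4.33, 4.46 and 10.6 TPM (mean 6.47 ± 3.60 TPM, SD, n = 3), above 22.3% of detected protein-coding genes. Library 3 lay above the other 2. The scaled counts of Cxcr4 were 6.45, 5.26 and 11.4 CPM, and library 3 exceeded library 2 by a ratio of 2.17 with an interval of 1.53 to 3.12 (adjusted p = 1.908e-05). With scaling within length bins the ratio was 2.19. Libraries 1 and 2 could not be separated at this depth, since the interval of their ratio ran from 0.824 to 1.83. The second transcript table assigned 116, 111 and 181 estimated counts to Cxcr4, 1.89 to 2.22 times the expected counts. The same ratio had a median of 1.27 to 1.29 over all tested genes and lay between 1.10 and 1.32 for the other 8 receptors.

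Among 8337 genes with 300 or more counts, the 5 whose log2 scaled counts lay nearest to those of Ccr7 over the 3 libraries were Klf13, Inpp5k, Vps35, Stk16 and Nfyc, at distances of 0.00586 to 0.00913 on the centred log2 scale, and 857 genes lay within 0.1 of it. None lay within 0.1 of Cxcr4. Cxcr4 had 57, 50 and 96 counts and Ccr7 3439, 3532 and 3242, so counting error moves Cxcr4 much further on this scale. The numbers of near genes therefore cannot be compared between these receptors. These distances rest on 3 libraries that the labels give as 1 biological replicate, and are a description.

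Cxcr3, the receptor for Cxcl9, Cxcl10 and Cxcl11 that draws cells to sites of type 1 inflammation, was the second highest. It stood at 176, 167 and 140 TPM (mean 161 ± 18.3 TPM, SD, n = 3). Its scaled counts were 250, 187 and 161 CPM. Library 1 exceeded library 3 by a ratio of 1.55 with an interval of 1.45 to 1.66 (adjusted p = 1.481e-38), and the 3 libraries fell in the order 1, 2, 3 on both scales. With scaling within length bins the ratio was 1.44. Among the 9 receptors it had the smallest adjusted p, with 2208, 1782 and 1357 counts behind it. CD8 T cells and NK cells also carry Cxcr3. Of 4 CD8 T cell markers 2 were detected in every library, with summed levels of 20.2, 17.5 and 23.45 TPM, and of 5 NK cell markers 2, with 8.43, 8.63 and 17.85 TPM and Klra8 at 0 in all 3. On scaled counts the CD8 T cell sum was 27.8, 17.6 and 25.5 CPM, highest in library 1 as was Cxcr3, and the NK cell sum 9.84, 5.78 and 10.2 CPM, highest in library 3. The part of these cells in the level of Cxcr3 was not tested.

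Ccr2, the receptor for Ccl2 that carries monocytes and activated T cells into inflamed tissue, stood at 37.4, 41.0 and 52.7 TPM (mean 43.7 ± 8.02 TPM, SD, n = 3). On scaled counts it had 108, 91.0 and 118 CPM, with library 3 above library 2 by a ratio of 1.30 and an interval of 1.185 to 1.425 (adjusted p = 4.626e-07). Library 3 was the highest on both scales. Of the 8 myeloid markers 4 were detected in every library, with summed levels of 29.5, 20.3 and 51.2 TPM, led by Lyz2 at 15.9 ± 8.45 TPM (SD, n = 3). Ccr2 alone exceeded that sum in every library. The libraries ranked 3, 1, 2 for the summed scaled counts of the myeloid markers, 37.9, 23.8 and 53.2 CPM, and for Ccr2, and the part of myeloid cells in its level was not tested.

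Ccr6, the receptor for Ccl20 found on cells drawn to mucosal and type 17 inflammation, stood at 99.9, 99.0 and 91.8 TPM (mean 96.9 ± 4.42 TPM, SD, n = 3). The scaled counts of Ccr6 were 96.0, 81.2 and 73.8 CPM, with a ratio of library 1 to library 3 of 1.30 and an interval of 1.17 to 1.45 (adjusted p = 6.569e-06). With scaling within length bins the ratio was 1.10 and Ccr6 no longer passed the test (adjusted p = 0.278), which 44.9% of all tested genes then did. Library 1 was the highest of the 3, by a margin close to that of other genes of its length.

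Ccr8, the receptor for Ccl1 and a marker of activated tissue and tumour regulatory T cells, stood at 93.5, 91.9 and 80.4 TPM (mean 88.6 ± 7.11 TPM, SD, n = 3). Its scaled counts were 85.4, 66.4 and 59.3 CPM, with a ratio of library 1 to library 3 of 1.44 and an interval of 1.285 to 1.62 (adjusted p = 9.455e-10). With scaling within length bins the ratio was 1.14 and the test was no longer passed (adjusted p = 0.142), as for Ccr6. At 1175 bases Ccr8 was the shortest of the 9 genes in the table.

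Ccr4, the receptor for Ccl17 and Ccl22 that serves homing to skin and other tissues, stood at 26.0, 23.5 and 25.7 TPM (mean 25.1 ± 1.36 TPM, SD, n = 3). For Ccr4 the scaled counts were 51.8, 36.6 and 41.2 CPM, with library 1 above library 2 by a ratio of 1.42 and an interval of 1.23 to 1.63 (adjusted p = 1.121e-05). The 3 TPM values lay close together while library 1 was the highest on scaled counts. Length-bin scaling gave a ratio of 1.47.

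Ccr9, the receptor for Ccl25 that takes cells to the small intestine and the thymus, stood at 13.4, 28.5 and 30.8 TPM (mean 24.2 ± 9.45 TPM, SD, n = 3). Its counts were 331, 636 and 636. Library 1 lay below the other 2. On scaled counts Ccr9 was the only one of the 9 receptors with library 1 at the bottom. The scaled counts were 37.4, 66.9 and 75.5 CPM, and library 1 stood at 0.496 of library 3 with an interval of 0.433 to 0.567 (adjusted p = 8.107e-25). Ccr9 is among the longer receptors at 3383 bases, and with scaling within length bins the ratio of the highest to the lowest library fell to 1.73, against 2.02 without it.

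Ccr9 is also carried by plasmacytoid dendritic cells and thymocytes. Of the 6 plasmacytoid dendritic cell markers 3 were detected in every library, with summed levels of 48.0, 30.1 and 62.4 TPM, from Ly6d at 37.0, 20.5 and 43.7 TPM, Tcf4 at 8.15, 6.30 and 10.85 TPM and Spib at 1.99, 3.35 and 6.96 TPM. The defining marker Siglech stood at 0.42, 0 and 0.34 TPM. Among the 5 thymocyte markers Rag2 was at 0 in every library, Rag1 stood at 0.06, 0 and 0 TPM, and Cd1d1, which many lymphocytes express, was the only one detected in every library, at 123, 140.3 and 129 TPM. The part of either cell type in the level of Ccr9 was not tested.

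Transcript shares, the percent of a gene's TPM that the transcript table gives to each annotated transcript, could be compared for the 6 receptors with more than 1 transcript. Ccr7, Cxcr3 and Ccr8 have 1 each, of 32 in all. Shares were computed by the authors from the same short reads and are estimates. The most divided gene was Ccr6, with 9 annotated transcripts that begin at separate places, and in this table Ccr2 was the receptor whose leading transcript moved most between libraries.

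Because the Ccr6 transcripts differ in where they begin, the sequences of the RefSeq starts are shown, 250 bases before and 50 after each. RefSeq (GRCm38.p6) places them at chr17:8235793-8236092 and chr17:8242276-8242575 on the plus strand. Their start positions, 8236043 and 8242526, are those of the GENCODE transcripts Ccr6-207 and Ccr6-201. Capitals mark the 50 bases from the start onward.
first start of Ccr6: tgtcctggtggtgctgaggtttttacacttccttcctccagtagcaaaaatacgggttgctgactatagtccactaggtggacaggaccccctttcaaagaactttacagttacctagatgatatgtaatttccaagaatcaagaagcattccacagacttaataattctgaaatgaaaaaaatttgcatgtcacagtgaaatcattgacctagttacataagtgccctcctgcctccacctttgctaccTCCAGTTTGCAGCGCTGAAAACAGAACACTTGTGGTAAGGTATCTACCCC
second start of Ccr6: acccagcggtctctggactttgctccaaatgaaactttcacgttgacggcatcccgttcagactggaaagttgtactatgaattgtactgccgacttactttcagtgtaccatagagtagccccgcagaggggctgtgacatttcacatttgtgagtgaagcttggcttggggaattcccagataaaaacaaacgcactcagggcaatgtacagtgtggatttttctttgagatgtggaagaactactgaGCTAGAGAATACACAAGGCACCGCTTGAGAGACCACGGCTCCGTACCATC
The first holds 2 CG dinucleotides at 42.3% GC and the second 10 at 47.7% GC, where the medians over 32851 RefSeq promoters of the same length were 7 and 52.7%. A promoter was matched for 7 of the 9 receptors, not for Ccr7 and Cxcr5. The 20 CG dinucleotides of the Cxcr4 promoter were the highest among the 8 promoters of these genes, and the others had between 1 and 10.

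Transcripts from the first Ccr6 start, Ccr6-207 and the leading Ccr6-202, which begins at 8236212, took 46.6%, 39.4% and 39.8% of the gene's TPM (mean 42.0% ± 4.03, SD, n = 3). Ccr6-201 from the second start took 16.1%, 21.7% and 22.3%. The 4 transcripts that begin between 8243811 and 8243814, led by Ccr6-204, took 37.3%, 38.9% and 37.0%. By share of TPM the first start was the largest of the 3 in every library, narrowly so in library 2. Of its share Ccr6-207 brought 16.1%, 9.94% and 14.6% with 31.75, 16.44 and 20.14 expected counts. On expected counts the third start held the most in libraries 2 and 3. The second transcript table placed 54.1% ± 2.78 at the first start and 21.1% ± 3.34 at the third (SD, n = 3). The size of the third thus depended on the quantification, while the first led in both by share of TPM.

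Ccr2-202, which begins inside the gene at 124105626, took 68.3%, 35.6% and 43.1% of the Ccr2 TPM in libraries 1, 2 and 3. Ccr2-201 took 13.4%, 48.1% and 38.5%. Libraries 1 and 3 thus had Ccr2-202 in the lead, and library 2 had Ccr2-201. The second transcript table gave Ccr2-202 49.3%, 34.0% and 38.2% and Ccr2-201 36.4%, 50.8% and 46.6%, so that Ccr2-202 led in library 1 and Ccr2-201 in library 2 in both tables, while in library 3 the tables put them in opposite order. Ccr2-204 followed with a mean of 13.7% ± 2.31 (SD, n = 3).

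Cxcr5-201 led in all 3 libraries with 74.6%, 69.7% and 75.9% of the Cxcr5 TPM, and its mean of 73.4% ± 3.24 (SD, n = 3) was 73.2% ± 3.31 in the second transcript table. Cxcr5-205 followed with a mean of 12.2% in the first table and 24.0% in the second. Its share in the first rests on 13.02, 14.88 and 12.84 expected counts, fewer than the 64.81, 308.4 and 139.1 of Cxcr5-202. Cxcr5-202, from a start upstream, took 3.51%, 17.8% and 10.3%, but a mean of 0.745% in the second table. The leading share was steady between libraries and tables, while the upstream share was larger in the first table than in the second.

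Ccr4-201 took 67.6% ± 1.02 and Ccr4-202 32.4% ± 1.02 of the Ccr4 TPM (SD, n = 3). The second transcript table gave Ccr4-201 85.6%, 64.75% and 67.35%, so the share was even between libraries in the first table only. Ccr9-204 took 84.2%, 75.2% and 71.0% of the Ccr9 TPM, followed by Ccr9-203 at a mean of 13.7%. In the second table Ccr9-204 took 71.8%, 66.3% and 51.9%, with the libraries in the same order. A transcript of Ccr9 that keeps an intron, Ccr9-206, named after its values were seen, took 5.07%, 9.80% and 11.9%. Library 1 had the lowest share of it and the lowest level of the gene. Ccr9-202, which begins far upstream at 123678439, was at 0 in every library and in both tables. Cxcr4-201 took 100%, 100% and 80.7%.

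**Figure D3:**
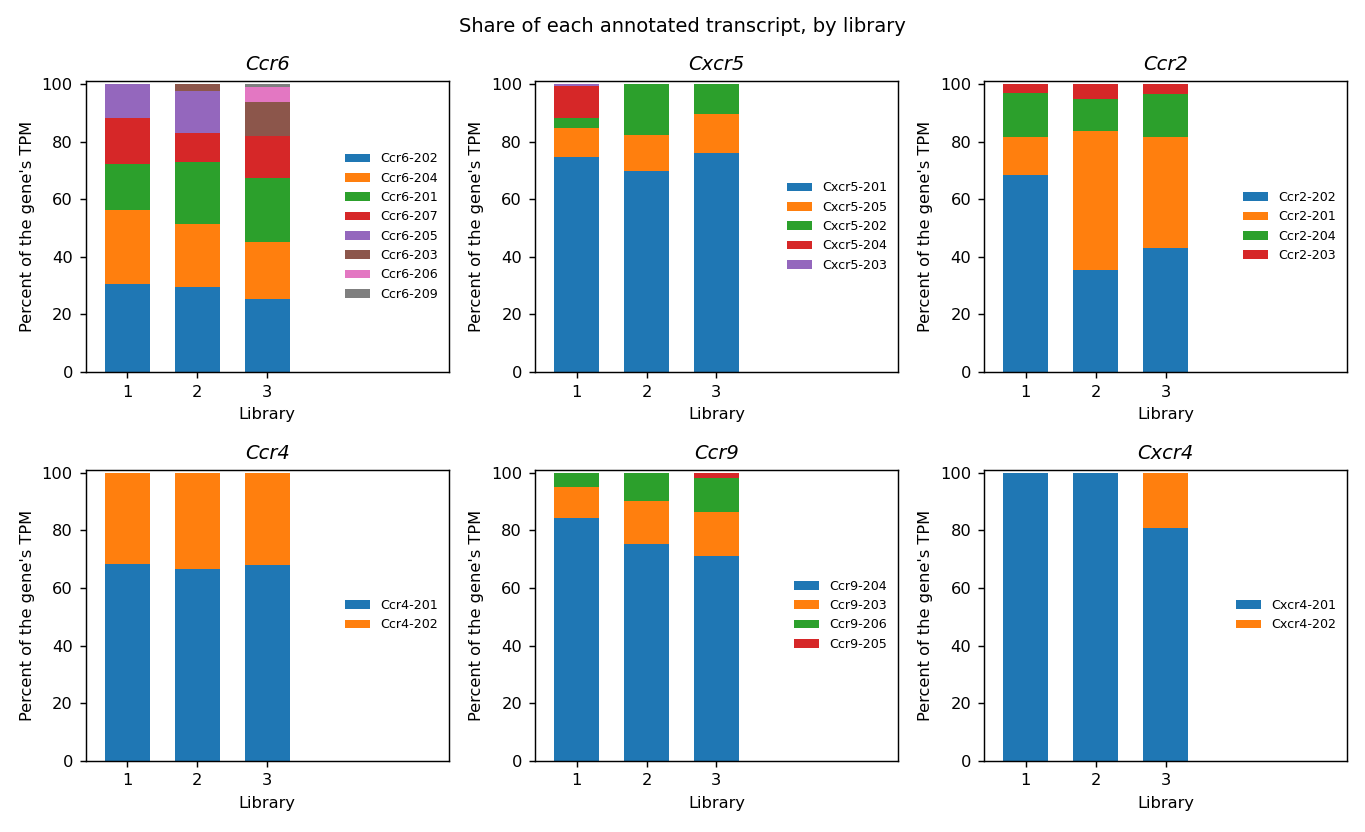
Percent of each gene's TPM given to its annotated transcripts, as stacked bars per library, for the 6 receptors with more than 1 transcript; transcripts at 0 in every library are left out. Ccr2-202 takes 68.3% in library 1 and 35.6% in library 2, while Ccr4 looks alike in all 3 libraries.

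The M4 gene table, counted on an older annotation, was set beside the M21 gene table as CPM over shared genes, centred on the median log2 ratio of 10093 genes with at least 1 CPM in both. The M4 table was more than 1.5-fold higher in every library for 1 receptor, Ccr8, as for 9.58% of all genes compared. It was more than 1.5-fold lower in every library for 2, Ccr2 and Ccr9, as for 21.5% of all genes. Ccr8 had 1607, 1322 and 1044 counts in the M4 table beside 755, 631 and 499 expected counts, a centred fold of 1.74. The centred fold of Ccr2 was 0.589 and that of Ccr9 0.545. For Ccr9 the log2 ratio was -0.64, -0.91 and -1.08 in libraries 1, 2 and 3, the widest spread among the 9. Ccr7 and Cxcr4 lay at 0.01 and 0.02 on that scale, close to the median gene.

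**Figure D4:**
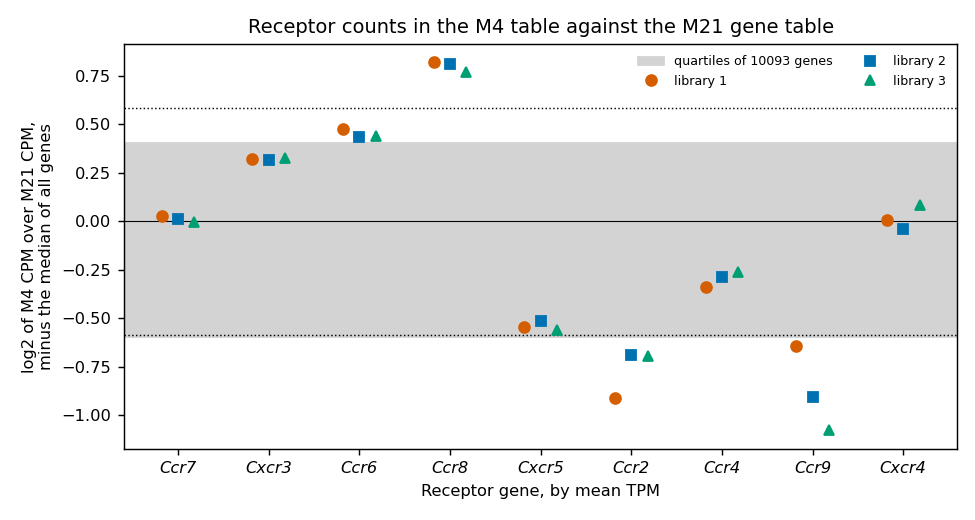
log2 ratio of CPM in the M4 table to CPM in the M21 gene table for each receptor and library, minus the median of all genes; the grey band holds the middle of all 10093 genes between their quartiles, -0.596 and 0.405, and dotted lines mark 1.5-fold. Ccr8 lies above the upper dotted line and Ccr2 and Ccr9 below the lower one in all 3 libraries.

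Neighbouring genes bear on counts where strand is not known to have been used. The span of Ccr9 on chromosome 9 (123678439 to 123784330, plus strand, mm10) overlaps Lztfl1 on the opposite strand over 23282 bases, and Lztfl1 stood at 28.5, 38.0 and 40.75 TPM. The pseudogene Gm10052 lies within the Ccr9 span on the opposite strand, over 960 bases, and stood at 31.7, 30.9 and 19.4 TPM. The other 4 genes that overlap this span stayed below 1 TPM. The span begins with Ccr9-202, which was at 0 in every library, and the Ccr9 transcripts with reads begin at 123767169 or later. Whether these overlaps fall on exons of those transcripts, or change the counts of Ccr9, was not tested. Cxcr5 (chromosome 9, 44511787 to 44561877, minus strand) overlaps Bcl9l on the opposite strand over 110 bases. No gene span of the M21 annotation overlapped the other 7: Ccr7 (chromosome 11, 99144196 to 99155077, minus strand), Cxcr3 (X, 101731535 to 101734269, minus strand), Ccr6 (17, 8236043 to 8257141, plus strand), Ccr8 (9, 120092114 to 120094906, plus strand), Ccr2 (9, 124101950 to 124113557, plus strand), Ccr4 (9, 114490316 to 114504916, minus strand) and Cxcr4 (1, 128588199 to 128592293, minus strand).

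On chromosome 9, which holds 5 of the 9 genes, Ccr9 and Ccr2 belong to a cluster of receptor genes with very unequal levels. In order along the chromosome, mean levels were 24.2 TPM for Ccr9, 30.9 TPM for Cxcr6, 0.377 TPM for Xcr1, 0.870 TPM for Ccr1, 0 for Ccr1l1, 3.17 TPM for Ccr3 and 43.7 TPM for Ccr2. The genes at or below 1 TPM thus lay between the expressed ones.

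The 9 genes held 94.5%, 95.4% and 94.7% of the summed TPM of the 19 signalling chemokine receptors listed. Ccrl2, which is listed with them but is known as an atypical receptor without G protein signalling, was left out of that sum. The 9 genes and the list were chosen with earlier results of these data known, so the share describes that choice. Of the other 11 receptors 4 were detected in every library, among them Cxcr6 at 30.9 ± 1.18 TPM, Ccrl2 at 18.6 ± 4.91 TPM and Ccr3 at 3.17 ± 0.735 TPM (SD, n = 3). Ccr10 followed at a mean of 1.29 TPM. Cxcr6, which marks tissue-resident T cells, lay between Ccr2 and Ccr4. Ccr1, Xcr1, Cxcr2, Ccr1l1 and Cxcr1 were below 1 TPM in every library, the last 2 of them at 0, as were the 4 atypical receptors Ackr1, Ackr2, Ackr3 and Ackr4, which take up chemokines without G protein signalling. Of the other receptors 8 had enough counts to test and 4 passed, beside 54.3% of all tested genes.

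Of the 36 chemokines listed, 8 were detected in every library and 24 were below 1 TPM in all 3, 7 of these at 0. Ccl5, made by activated and memory T cells, led at 434, 312 and 297 TPM. Cxcl10 followed at a mean of 16.2 TPM, Ccl1 at 11.7, Ccl4 at 10.3 and Ccl25 at 9.02 TPM. Library 1 was the highest for Ccl5, Cxcl10 and Ccl1. Of the 7 ligands tested 3 passed the test, Ccl5, Cxcl10 and Ccl1, beside 54.3% of all tested genes. The higher counts of short genes in library 1, described above, were not taken out of these values.

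Set beside the receptors they bind, chemokines of only some pairs were found in the same RNA. Cxcr3 stood beside Cxcl10, with Cxcl9 and Cxcl11 below 1 TPM, Ccr8 beside Ccl1, and Ccr9 beside Ccl25. Ccl20, the ligand of Ccr6, was at 2.55, 2.93 and 1.04 TPM. The ligands of Ccr7, Ccl19 and Ccl21a, were at 0 in every library, and Ccl17, which binds Ccr4, was too. Ccl22, which also binds Ccr4, was at 1.21, 0 and 0 TPM. Cxcl12, the ligand of Cxcr4, Cxcl13, that of Cxcr5, and Ccl2, Ccl7 and Ccl12, which bind Ccr2, stayed below 1 TPM throughout.

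The receptor signal runs through genes whose levels spread widely. Of 11 G protein and phosphoinositide 3-kinase gamma genes 10 were detected, led by Gnb1 at 207.5 ± 25.1, Gnai2 at 88.5 ± 10.8, Gnai3 at 69.5 ± 8.23, Gna13 at 44.8 ± 3.80 and Gng2 at 36.5 ± 9.87 TPM (SD, n = 3). Gnai2 and Gnai3 encode inhibitory alpha subunits, and the third such gene listed, Gnai1, was at 0 in every library. All 15 migration genes were detected. Rac2, the Rac of blood cells, stood at 2402 ± 75.1 TPM and the actin regulator Coro1a at 2216 ± 92.6 TPM, followed by Cdc42 at 523, Fermt3 at 348 and Rhoh at 338 TPM. Of these lists 7 of 10 and 14 of 15 genes passed the between-library test, beside 54.3% of all genes. Small differences pass this test in genes with many counts. Fermt3, with 5551, 6418 and 5872 counts, passed at a ratio of 1.11 between the highest and lowest library.

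Of 14 desensitisation genes 12 were detected, led by the G protein inactivators Rgs1 at 478 ± 48.6, Rgs10 at 419.5 ± 32.5, Rgs19 at 160 ± 3.02 and Rgs14 at 63.6 ± 9.39 TPM (SD, n = 3). The receptor kinase Grk2 stood at 63.1 ± 14.6 TPM, and Grk3 was below 1 TPM in every library. The mean levels of Rgs1 and Rgs10 lay above that of every receptor. Of 13 genes tested 9 passed, beside 54.3% of all tested genes.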

How the data were processed

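Polyadenylated RNA of mouse regulatory T cells was measured in 3 libraries of 1 group. The authors deposited a gene table with expected counts, TPM and a posterior mean of TPM on mm10 and GENCODE M21, and a transcript table with each transcript's percent of its gene's TPM, per the file headers and deposited readmes. A second transcript table with estimated counts and TPM, and a gene table with whole-number counts on GENCODE M4, were also deposited by the authors. No label or header names the aligner, the quantifiers, the counter or the use of strand. Depth per library was 8284324 to 9299013 expected counts. Entries that are no mouse gene held 0.117% to 0.135% of the counts and were left out.

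Expected counts were rounded. Each gene with 30 or more counts was tested by a chi-square test of homogeneity against TMM-scaled totals (edgeR 4.0.16, R 4.3.3), with Benjamini-Hochberg adjustment over all genes and a threshold of 0.05, using Python 3.11.15, numpy 2.4.6, scipy 1.17.1 and pandas 2.3.3. The test was tried on simulated data first. It compares libraries, not conditions, and assumes counting noise only. Ratios carry 95% exact binomial intervals, which cover counting error only, since PCR copies of a molecule were not collapsed by identifiers as far as the labels say. The TPM of the second transcript table are lower for all 9 receptors than those of the gene table (means of 126 and 270.2 TPM for Ccr7), so levels in the report come from the gene table. From each gene list the 5 highest genes and those below 1 TPM in every library were named, except that low ligands were counted and named only as known partners of a receptor. Transcripts were named where they led or averaged 10% or more, and likeness was the Euclidean distance of centred log2 scaled counts. Some genes that these rules name are not reported here. Alternatives were other scaling, count minimums, tables and thresholds, and leaving out each library. The members and lists were chosen with earlier results of these data known.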

Additional observations from a re-analysis of the deposited data

How the results depend on the processing

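All 9 receptors passed 1 TPM in every library with the posterior mean TPM, the second transcript table and each library left out, and 8 passed 10 TPM, all but Cxcr4. The number of receptors past the between-library test ranged from 4 to 7 when 1 library was left out, and was 4 without library 1, against 8 with all 3; it was 7 without library 2, where Ccr2 was lost, and 7 without library 3, where Cxcr4 was lost. It was 8 with RLE size factors, with unscaled totals, with no count minimum and with the M4 counts, 9 with the second transcript table, where Ccr7 also passed, and 6 with scaling within 10 length bins. Neighbouring pairs with separate levels numbered 4 in the second transcript table, where Ccr9 and Cxcr4 overlapped, and 5 with the posterior mean TPM, which put Cxcr5 above Ccr8, and 5 or 6 when 1 library was left out. Of the single adjusted p-values 72 stayed on their side of the threshold, 8 were lost and 1 was gained, while 30 mean TPM values moved by less than their SD and 15 by more, 8 of these in the second transcript table and 7 with the posterior mean TPM. Of the shares of leading transcripts 22 moved by less than their SD and 2 by more, Ccr4-201 (72.6% in the second transcript table) and Ccr9-204 (63.3%). No paired analysis was possible because there is 1 group. Cxcr4, with 50 to 96 counts per library, is the receptor whose ratios are least precise.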
